A study of Mus musculus with 4 samples.

Results

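The SLC25 family are the carriers of the inner mitochondrial membrane, and its genes were followed here in the calvaria, the vault of the skull, from mouse embryos of stage E14.5. The members were the protein-coding genes of the GRCm38 annotation whose symbol is Slc25a followed by a number. By this rule 47 of the 55487 genes in the count table were members, and the 47 such genes of the annotation were all found in it. A filter on low counts left 42 of them for testing, among 20947 genes tested in all. Poly(A) RNA had been sequenced from 2 libraries of the frontal bone and from 2 libraries that each combined the parietal and interparietal bones. The labels name no strain, genotype, sex or treatment and do not state how many embryos went into a library. Whether the libraries of a group are separate animals is not given either, so p-values measure the spread between these libraries, which may be technical.

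Mitochondria keep their own pools of nucleotides, phosphate, acids and cofactors behind an inner membrane that these molecules cannot cross unaided. Each SLC25 protein is built of repeats of a short membrane-spanning unit and moves a small set of solutes, often by exchange of a solute of the matrix for a solute of the cytosol. Adenine nucleotide and phosphate carriers supply the ATP synthase and export its product. The citrate carrier Slc25a1 exports the citrate that is made in the matrix. Citrate is also a component of bone mineral, and the series belongs to a study of vesicles that carry citrate in mineralizing bone.

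Total counts ran from 24069177 to 35555013 per library. Expression is given in CPM, the counts scaled to a common library total with TMM factors, in the order frontal libraries 1 and 2, then parietal-interparietal libraries 1 and 2. Fold changes are frontal against parietal-interparietal, and a log2 difference is the log2 of that fold. A gene was called where the p-value of edgeR's quasi-likelihood test, adjusted over all 20947 genes, was under 0.05. The libraries also held RNA of other tissues. Markers of the forebrain summed to 399 and 386 CPM in the frontal and to 27.8 and 25.8 CPM in the parietal-interparietal libraries, with 8 of 8 called higher. Of 10 osteoblast markers 2 were called higher and 2 lower, and none of these 10 was at 0 in every library.

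The same 4 carriers were the highest in every library. On the scale of CPM per kilobase of exons, which allows genes to be compared, Slc25a4 was first at 214, 223, 199 and 207. Its close relative Slc25a5 followed at 151, 168, 118 and 122. Both exchange ADP for ATP. The phosphate carrier Slc25a3 was at 52.9, 59.3, 46.0 and 44.1, and the oxoglutarate carrier Slc25a11 at 49.4, 49.7, 40.0 and 38.9, again in CPM per kilobase. The groups did not overlap for any of these 4 genes, with the frontal libraries higher, as they were without overlap for 28.9% of all genes tested. Slc25a3, Slc25a4 and Slc25a5 together made up 60.6% and 62.8% of the family's summed CPM per kilobase in the frontal and 58.6% and 59.1% in the parietal-interparietal libraries.

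The next members in this order were Slc25a51, Slc25a39 and Slc25a1, with means over the 4 libraries of 24.1, 22.4 and 19.1 CPM per kilobase. The median member was at 4.15. At the other end 6 members stayed under 1 CPM in every library. Slc25a2, Slc25a31, Slc25a34, Slc25a41 and Slc25a54 were the 5 that did not pass the filter, and none of them had more than 14 counts in a library. Slc25a21, the carrier of oxoadipate, passed it at 0.487, 0.227, 0.491 and 0.295 CPM. Summed over the 47 genes, the family took 2055 and 2147 CPM in the frontal and 1925 and 1949 CPM in the parietal-interparietal libraries.

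**Figure D1:**
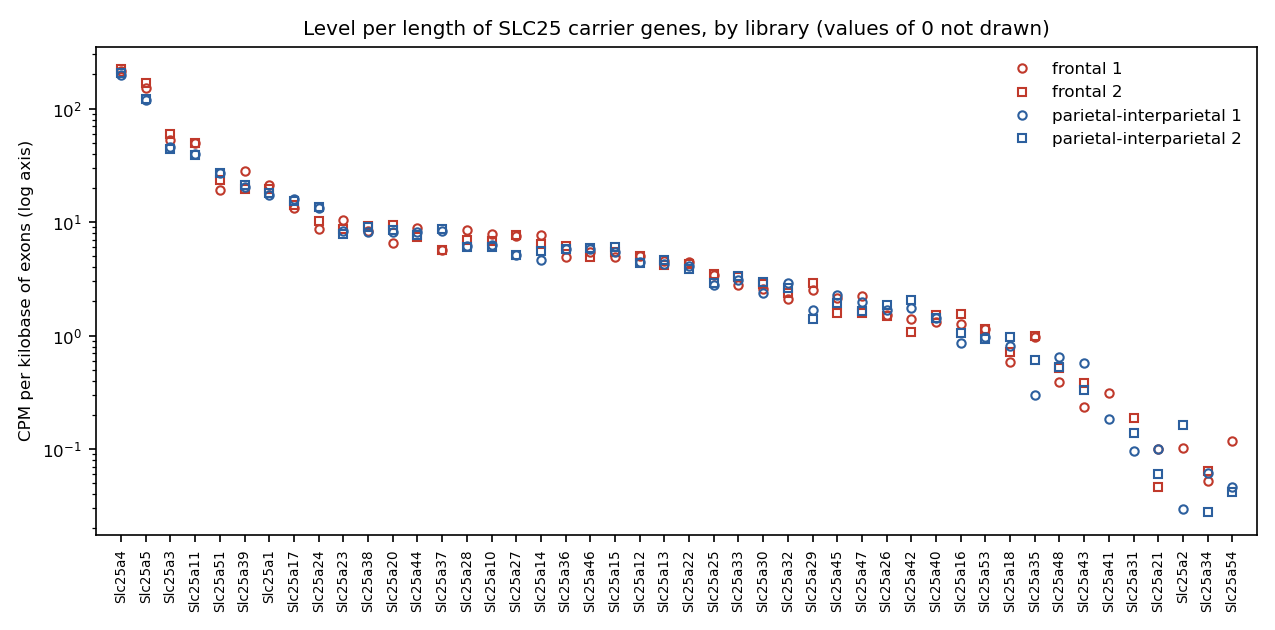
Level of the SLC25 genes reported here in CPM per kilobase of exons (log axis) in the 4 libraries, ordered by the mean over libraries, with libraries at 0 not drawn. Slc25a4 and Slc25a5 stand highest, with means of 211 and 140, and the 5 members that were not tested lie among the 6 lowest with Slc25a21.

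Of the 42 tested members 7 were called, 5 higher and 2 lower in the frontal libraries, and 35 were not called. This was 16.7% of members, where 12.7% of all genes tested were called. Members called higher made up 11.9%, against 6.25% of all genes, and members called lower 4.76%, against 6.44%. The higher members were Slc25a5, Slc25a3, Slc25a11, Slc25a27 and Slc25a29, and the lower members were Slc25a37 and Slc25a24. Their changes were modest, from 1.24-fold to 1.76-fold. No called member reached 2-fold, and among all tested members Slc25a35 alone did so without a call, where 9.83% of all genes tested differed at least that much.

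The median log2 fold change was 0.03 over the members and 0.01 over all genes tested. Log2 fold changes were above 0 for 23 members and below 0 for 19. Both frontal libraries lay above both parietal-interparietal libraries for 18 members (42.9%, against 28.9% of all genes tested) and below them for 10 (23.8%, against 28.4%). The remaining 14 members overlapped. The frontal libraries differed more between themselves than the parietal-interparietal libraries did: the higher library exceeded the lower by a median factor of 1.14 against 1.06 over the tested members.

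**Figure D2:**
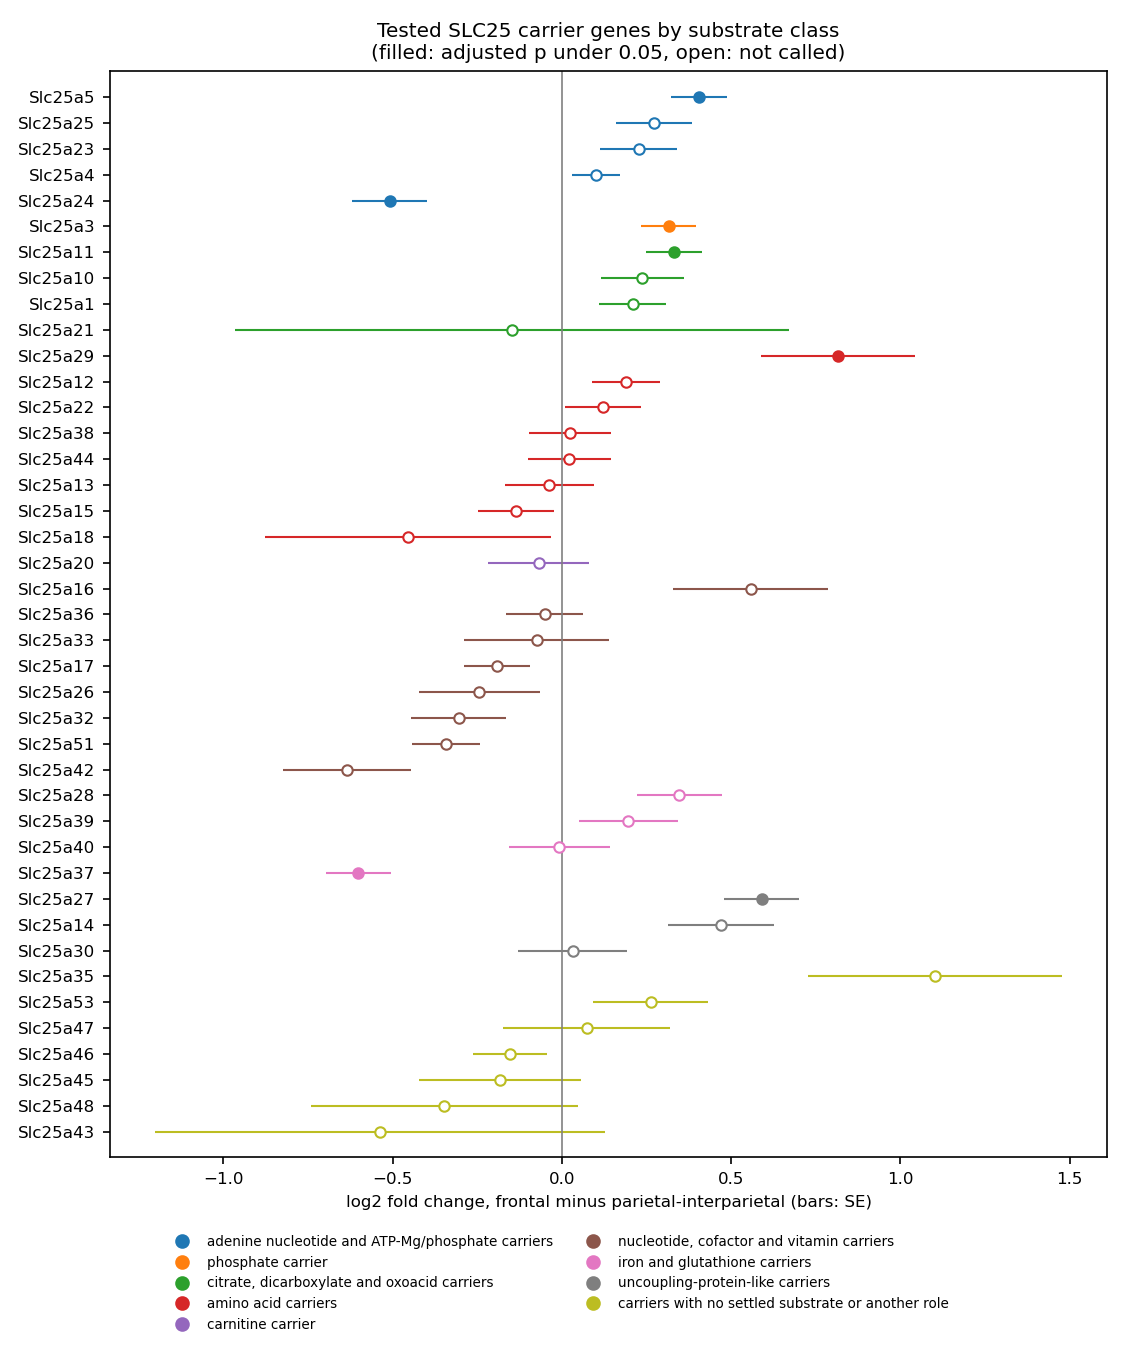
Log2 fold change (frontal minus parietal-interparietal, horizontal axis) of the tested members reported here with standard errors, grouped and coloured by substrate class. Filled points mark the 7 called members, 5 to the right of 0 and 2 to the left.

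The stretch upstream of the RefSeq start site is given for the citrate carrier, which was not called, for 3 of the higher members and for 1 of the lower members. The called members Slc25a27 and Slc25a37 had no promoter window in the source used, and Slc25a11 is not shown. Each stretch shown is taken from RefSeq's GRCm38.p6 table and runs 5′ to 3′ in the direction of the gene. It is the longest part of the 250 bases before the start site that holds no annotated exon. For Slc25a3 this is 158 bases that end 92 bases before the start site. For Slc25a29 it is 162 bases that end 7 bases before it. The other stretches hold all 250 bases, so motif counts come from unequal lengths. Capitals mark matches on either strand to 7 short motifs: the ETS core CCGGAAG, the NRF1 site GCGCATGC, the GC box GGGCGG, the CCAAT box CCAAT, the TATA box TATAAA, the cyclic AMP element TGACGTCA and the E-box CACGTG.
Slc25a1, chr16:17928220-17928469, minus strand: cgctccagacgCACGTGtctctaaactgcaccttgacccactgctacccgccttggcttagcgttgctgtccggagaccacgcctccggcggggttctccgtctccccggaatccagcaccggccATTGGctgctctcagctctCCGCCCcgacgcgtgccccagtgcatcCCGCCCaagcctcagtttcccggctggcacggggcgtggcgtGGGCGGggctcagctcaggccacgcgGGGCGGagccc
Slc25a3, chr10:91124060-91124217, minus strand: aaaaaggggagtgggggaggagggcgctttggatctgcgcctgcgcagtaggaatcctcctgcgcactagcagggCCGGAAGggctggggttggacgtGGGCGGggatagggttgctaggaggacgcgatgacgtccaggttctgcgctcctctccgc
Slc25a5, chrX:36795347-36795596, plus strand: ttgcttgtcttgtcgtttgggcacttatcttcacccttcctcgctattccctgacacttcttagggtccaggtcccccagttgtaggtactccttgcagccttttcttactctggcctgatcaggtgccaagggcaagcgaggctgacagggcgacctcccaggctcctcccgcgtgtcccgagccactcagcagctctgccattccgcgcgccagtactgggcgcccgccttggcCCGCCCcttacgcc
Slc25a29, chr12:108835884-108836045, minus strand: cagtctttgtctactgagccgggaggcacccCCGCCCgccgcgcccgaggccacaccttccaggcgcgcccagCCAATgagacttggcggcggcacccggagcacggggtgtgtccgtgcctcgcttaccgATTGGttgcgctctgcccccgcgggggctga
Slc25a24, chr3:109122899-109123148, plus strand: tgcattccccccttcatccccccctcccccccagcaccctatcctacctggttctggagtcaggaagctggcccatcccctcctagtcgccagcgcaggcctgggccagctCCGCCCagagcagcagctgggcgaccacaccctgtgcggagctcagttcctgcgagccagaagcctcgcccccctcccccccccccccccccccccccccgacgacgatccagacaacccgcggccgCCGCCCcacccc

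The Slc25a1 stretch held 4 GC boxes, 1 CCAAT box and 1 E-box. That of Slc25a3 held 1 ETS core and 1 GC box, that of Slc25a5 1 GC box, that of Slc25a29 1 GC box and 2 CCAAT boxes, and that of Slc25a24 2 GC boxes. The Slc25a29 stretch is also the whole gap of 162 bases to Slc25a47, which is transcribed in the opposite direction. Promoter windows were found for 36 of the 47 members, as 46 windows. Of these windows 69.6% held a GC box, against 32.7% of all 32851 windows of 250 bases and 42.6% of the windows of protein-coding genes. A CCAAT box was in 45.7% of member windows, against 33.8% of all and 35.4% of protein-coding windows, and an E-box in 17.4%, against 6.02% and 6.63%. In the same order, the ETS core was in 13.0%, 6.91% and 8.98%, the NRF1 site in 4.35%, 2.26% and 2.93%, the cyclic AMP element in 4.35%, 1.55% and 1.92%, and the TATA box in 4.35%, 12.4% and 11.6%. These are matches of letters, and several windows can belong to the same gene.

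Of the ADP/ATP carriers Slc25a5 was called higher and Slc25a4 was not called. Slc25a5, the ADP/ATP carrier of proliferating cells (ENSMUSG00000016319, chromosome X, 36795651 to 36798807), was at 248 and 277 CPM in the frontal and 195 and 201 CPM in the parietal-interparietal libraries. The groups did not overlap, and Slc25a5 was 1.32-fold higher in the frontal libraries (262 ± 20.3 against 198 ± 4.84 CPM, SD with n = 2 per group, log2 difference 0.40 ± 0.08 SE, adjusted p = 0.0104 by edgeR). Slc25a4, the ADP/ATP carrier that predominates in heart and skeletal muscle, was at 503, 524, 469 and 488 CPM. Its frontal libraries were also the higher ones, but the difference was not called (log2 difference 0.10 ± 0.07, adjusted p = 0.398). In the same libraries 10 of 12 tested markers of skeletal muscle were called lower in frontal and 0 higher, and the 13 markers summed to 1930 and 1816 CPM in the frontal and 2518 and 2493 CPM in the parietal-interparietal libraries. Their part in the level of Slc25a4 was not tested. The Slc25a5 share of the pair's summed CPM per kilobase was 41.3% and 43.0% in frontal and 37.2% and 37.1% in parietal-interparietal libraries, without overlap. In bulk tissue, fewer cells of a type and less RNA per cell cannot be told apart.

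Slc25a5 has 2 processed pseudogenes in the annotation, Gm5529 and Gm5560, that match it over at least 300 bases at 95% identity or more. They were counted at most 36 times in a library, against 7129 counts of Slc25a5 in frontal library 1. The treatment of reads that match several places is not given in the sources used here, so reads could have been lost from Slc25a5 or shared with these copies.

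Of the 3 tested carriers that exchange ATP-Mg for phosphate and are switched on by calcium, 1 was called, and it was lower in frontal. With the ADP/ATP carriers they form a class of 5 tested members. In this class 1 was called higher and 1 lower, where 6.25% and 6.44% of all genes were. The class had a median log2 fold change of 0.23. Slc25a24 (ENSMUSG00000040322, chromosome 3, 109123149 to 109168457) was at 29.6 and 34.9 CPM in the frontal and 45.7 and 46.2 CPM in the parietal-interparietal libraries. The groups were apart, and Slc25a24 was 1.42-fold lower in frontal (32.2 ± 3.80 against 45.9 ± 0.358 CPM, SD with n = 2 per group, log2 difference −0.51 ± 0.11 SE, adjusted p = 0.0137 by edgeR). Its relatives Slc25a23 and Slc25a25 were not called. Slc25a23 was at 55.7, 45.5, 44.5 and 41.9 CPM (log2 difference 0.23 ± 0.11, adjusted p = 0.235), and Slc25a25 at 26.7, 27.3, 21.9 and 22.9 CPM (0.27 ± 0.11, adjusted p = 0.148). Of the summed CPM per kilobase of these 3 genes Slc25a24 took 38.2% and 45.7% in frontal, against 54.3% and 55.4% in parietal-interparietal libraries. The share was lower in both frontal libraries, which differed from each other by more than the parietal-interparietal libraries did. The difference of shares was not tested. Markers of the meninges were also lower in frontal, with 7 of 8 called lower and 0 higher and sums of 409 and 400 CPM in frontal and 750 and 747 CPM in parietal-interparietal libraries. Of 7 cartilage markers 2 were called lower and 0 higher, and the 7 together summed to 380 and 379 against 497 and 474 CPM. Most of that sum was Col2a1, 1 of the 2 called, with means of 258 against 350 CPM. The 5 cartilage markers that were not called had log2 differences between −0.13 and 0.16. The part of both lists in the difference of Slc25a24 was not tested.

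Slc25a3, the sole member of its class, brings phosphate into the matrix for the ATP synthase and also carries copper (ENSMUSG00000061904, chromosome 10, 91116574 to 91124059). It was at 293 and 329 CPM in the frontal and 256 and 245 CPM in the parietal-interparietal libraries. Slc25a3 was 1.24-fold higher in frontal (311 ± 25.4 against 250 ± 7.63 CPM, SD with n = 2 per group, log2 difference 0.32 ± 0.08 SE, adjusted p = 0.0303 by edgeR). Of the ADP/ATP carriers that work beside it, Slc25a5 was called and Slc25a4 was not.

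The citrate carrier itself was not called. Slc25a1 exchanges citrate of the matrix for malate and was at 46.3 and 42.4 CPM in the frontal and 37.3 and 39.4 CPM in the parietal-interparietal libraries. Both frontal libraries were above both parietal-interparietal libraries, and the difference did not pass the test (44.4 ± 2.77 against 38.4 ± 1.49 CPM, log2 difference 0.21 ± 0.10, edgeR adjusted p = 0.212). Of the 4 carriers of citrate, dicarboxylates and oxoacids, 1 was called higher and 0 lower, where 6.25% and 6.44% of all genes were. The median log2 fold change of these carriers was 0.22.

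The called gene of this class was Slc25a11, which exchanges oxoglutarate for malate in the malate-aspartate shuttle (ENSMUSG00000014606, chromosome 11, 70644196 to 70647479). It was at 105 and 105 CPM in the frontal and 84.7 and 82.4 CPM in the parietal-interparietal libraries, with little spread within either group. Slc25a11 was 1.26-fold higher in frontal (105 ± 0.438 against 83.5 ± 1.63 CPM, SD with n = 2 per group, log2 difference 0.33 ± 0.08 SE, adjusted p = 0.0256 by edgeR). Its exons share 189 of 2120 bases with Rnf167 on the other strand, and the strand setting of the counting is not given in the sources used here. Slc25a10, the dicarboxylate carrier, was at 26.9, 23.5, 21.9 and 20.8 CPM (0.24 ± 0.12, adjusted p = 0.247), again with the frontal libraries higher but without a call. Slc25a21 had a log2 fold change of −0.15 ± 0.82 and no difference was detectable at its depth of 8 to 14 counts per library.

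Among the amino acid carriers 1 of 8 tested members was called higher and 0 lower, where 6.25% and 6.44% of all genes were. Their median log2 fold change was 0.02. The called gene was Slc25a29, a carrier of basic amino acids such as arginine and lysine (ENSMUSG00000021265, chromosome 12, 108825873 to 108835883), at 6.54 and 7.64 CPM in the frontal and 4.42 and 3.65 CPM in the parietal-interparietal libraries. It was 1.76-fold higher in frontal (7.09 ± 0.779 against 4.03 ± 0.545 CPM, SD with n = 2 per group, log2 difference 0.82 ± 0.23 SE, adjusted p = 0.0410 by edgeR), the largest fold of the 7 called members and the one with the largest standard error. Its neighbour Slc25a47, 162 bases away, was at 6.71, 4.71, 5.93 and 4.90 CPM, with overlapping groups and a log2 fold change of 0.07 ± 0.25.

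The aspartate-glutamate carriers Slc25a12 (aralar) and Slc25a13 (citrin) are the other carriers of the malate-aspartate shuttle, beside Slc25a11. Slc25a12 was at 37.0, 36.9, 32.6 and 32.2 CPM (log2 difference 0.19 ± 0.10, adjusted p = 0.255), so its frontal libraries were higher without a call. Slc25a13 was at 17.2, 15.8, 16.3 and 17.6 CPM and its groups overlapped. Slc25a12 took 52.6% and 54.7% of the pair's summed CPM per kilobase in the frontal and 50.8% and 48.7% in the parietal-interparietal libraries. Of the glutamate carriers, Slc25a22 was at 26.4, 25.4, 24.4 and 23.3 CPM and Slc25a18 at 1.11, 1.36, 1.55 and 1.84 CPM. Slc25a22 made up 88.3% and 85.6% of that pair per length in the frontal and 83.3% and 80.1% in the parietal-interparietal libraries. These shares did not overlap between groups, and neither gene was called. Slc25a18 had only 32 and 48 counts in the frontal and 38 and 50 in the parietal-interparietal libraries (log2 difference −0.45 ± 0.42). Its exons also share 32 of 1911 bases with Atp6v1e1 on the other strand.

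Slc25a38, which carries the glycine used to make heme, was the amino acid carrier with the highest level per length. It was at 23.0, 25.2, 22.4 and 25.0 CPM, with overlapping groups (log2 difference 0.02 ± 0.12, adjusted p = 0.931). Slc25a15, an ornithine carrier of the urea cycle, and Slc25a44, a carrier of branched-chain amino acids, overlapped between groups as well, with log2 differences of −0.14 ± 0.11 and 0.02 ± 0.12. The carnitine-acylcarnitine carrier Slc25a20, which brings fatty acids into the matrix, was at 31.7 and 45.3 CPM in the frontal and 39.8 and 41.1 CPM in the parietal-interparietal libraries. The frontal libraries lay on either side of the parietal-interparietal libraries (adjusted p = 0.823).

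None of the 9 carriers of nucleotides, cofactors and vitamins was called in the main edgeR fit (filtered counts of all 4 libraries, TMM scaling, group as the only term). In it 3 of the 9 had an unadjusted p under 0.05, as had 27.1% of all genes tested. Their median log2 fold change was −0.19. Slc25a51, the carrier of NAD+, had the highest level per length of this class and was at 105 and 129 CPM in the frontal and 149 and 148 CPM in the parietal-interparietal libraries. The groups did not overlap, and the difference fell just short of the threshold (117 ± 16.8 against 149 ± 1.07 CPM, SD with n = 2 per group, log2 difference −0.34 ± 0.10 SE, adjusted p = 0.0524 by edgeR). Slc25a42, a carrier of coenzyme A, was at 8.38 and 6.47 CPM in the frontal and 10.5 and 12.5 CPM in the parietal-interparietal libraries (−0.63 ± 0.19, adjusted p = 0.0535). DESeq2 called Slc25a51 (adjusted p = 0.0267) and did not call Slc25a42 (adjusted p = 0.0623). With edgeR, Slc25a51 was called with no filter (0.00455), with the replicate number as a block (0.0150), with scaling by the total count (0.0412) and with halved counts (0.0424). It was not called with upper-quartile scaling (0.0552). The settings named here for Slc25a51 are only those that keep 2 libraries per group. With 1 library left out its log2 difference ran from −0.50 to −0.20, and with the parietal-interparietal pair summed it was −0.35. Over the 11 alternatives the adjusted p of Slc25a42 ran from 0.000115 to 0.405, and edgeR called it with no filter (0.0157), with the replicate number as a block (0.0214), with scaling by the total count (0.0408), with halved counts (0.0472) and without either frontal library.

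Slc25a16, which is also tied to coenzyme A, was at 6.05 and 7.47 CPM in the frontal and 4.13 and 5.05 CPM in the parietal-interparietal libraries, higher in frontal without a call (log2 difference 0.56 ± 0.23, adjusted p = 0.146). Log2 fold changes lay between −0.30 and −0.05 for 5 further members of the class. They were Slc25a17 of the peroxisome, the S-adenosylmethionine carrier Slc25a26, the folate carrier Slc25a32, and the pyrimidine nucleotide carriers Slc25a33 and Slc25a36. Slc25a36 took 64.2% and 65.1% of the pyrimidine pair's summed CPM per kilobase in the frontal and 65.3% and 63.5% in the parietal-interparietal libraries, so the shares overlapped. Slc25a33 was at 5.22, 6.25, 5.81 and 6.26 CPM and Slc25a36 at 47.6, 59.4, 55.6 and 55.3 CPM.

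Of the 4 tested carriers of iron and glutathione 1 was called lower in frontal and 0 higher, where 6.44% and 6.25% of all genes were. Their median log2 fold change was 0.10. The called gene was 1 of the mitoferrins, which bring iron into mitochondria. Slc25a37 (mitoferrin 1), the iron carrier of developing red cells (ENSMUSG00000034248, chromosome 14, 69241848 to 69285112), was at 34.1 and 33.9 CPM in the frontal and 50.6 and 52.5 CPM in the parietal-interparietal libraries. It was 1.52-fold lower in frontal (34.0 ± 0.124 against 51.6 ± 1.37 CPM, SD with n = 2 per group, log2 difference −0.60 ± 0.09 SE, adjusted p = 0.00289 by edgeR), the smallest adjusted p of the family. Slc25a28 (mitoferrin 2), the form of most other tissues, was at 31.8 and 26.2 CPM in the frontal and 23.0 and 22.5 CPM in parietal-interparietal libraries (log2 difference 0.35 ± 0.13, adjusted p = 0.104). Its frontal libraries were higher without a call. Of the pair's summed CPM per kilobase Slc25a37 made up 40.0% and 44.6% in frontal, against 57.8% and 59.2% in parietal-interparietal libraries.

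Of 13 tested erythroid markers 6 were called lower in the frontal libraries, 0 higher and 7 were not called, with a median log2 difference of −0.51. Alas2, the erythroid enzyme that starts heme synthesis, was at 40.0 and 31.5 CPM in the frontal and 49.6 and 51.7 CPM in the parietal-interparietal libraries, and Slc4a1, the anion exchanger of the red cell membrane, at 16.8 ± 1.31 against 37.0 ± 1.36 CPM. The 13 markers summed to 11317 and 9593 CPM in the frontal and 13538 and 13435 CPM in the parietal-interparietal libraries, and none was at 0 in every library. The erythroid transcription factor genes Klf1 (1.78 ± 0.431 against 1.42 ± 0.799 CPM) and Gata1 (0.802 ± 0.291 against 0.831 ± 0.445 CPM) were not called. The part of these markers in the difference of Slc25a37 was not tested. Slc25a37 also shares 381 of 6021 exon bases with Gm31748 on the other strand, and stretches of it match Gm16867 and Gm37847. Gm16867 had at most 52 counts in a library, against 981 counts of Slc25a37 in frontal library 1.

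The glutathione carrier Slc25a39 was at 77.9 and 53.8 CPM in the frontal and 56.4 and 58.3 CPM in the parietal-interparietal libraries. Frontal library 1 stood above the other 3 libraries, and the groups overlapped (log2 difference 0.20 ± 0.15, adjusted p = 0.437). Its relative Slc25a40 was at 11.13, 12.78, 12.07 and 11.98 CPM. Slc25a39 took 95.5% and 92.8% of the pair per length in the frontal and 93.4% and 93.7% in the parietal-interparietal libraries, with overlapping shares.

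**Figure D3:**
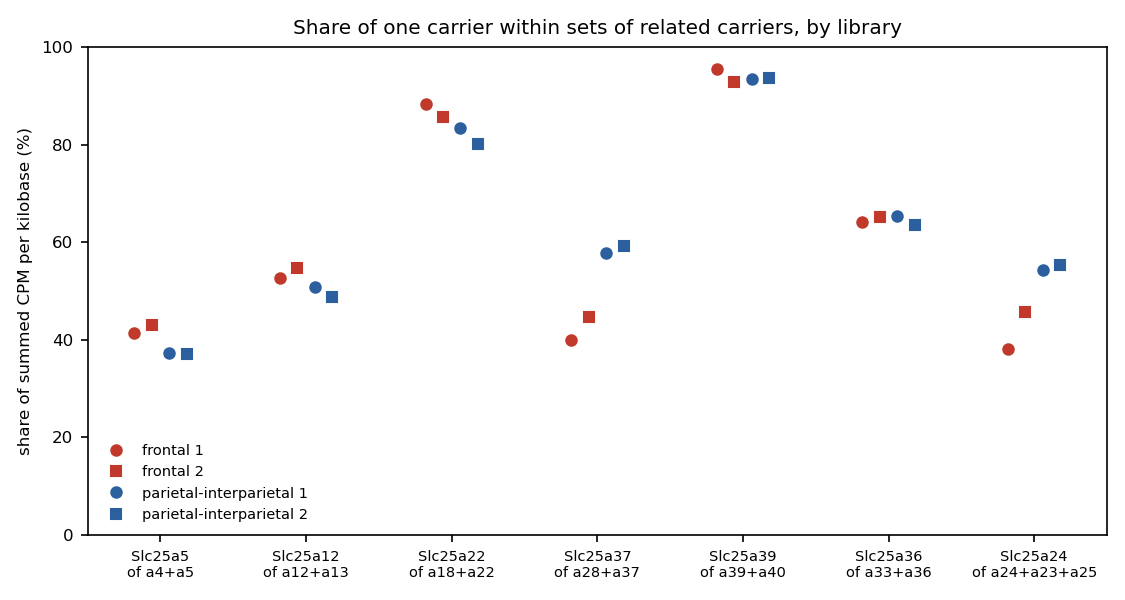
Share of the named carrier in the summed CPM per kilobase of its set of related carriers (vertical axis, percent), with 1 point per library. The Slc25a37 share of the mitoferrins was 40.0% and 44.6% in frontal and 57.8% and 59.2% in parietal-interparietal libraries, while those of Slc25a39 and Slc25a36 overlapped between groups.

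Of the 3 carriers related to the uncoupling proteins 1 was called higher in frontal and 0 lower, where 6.25% and 6.44% of all genes were. Slc25a27, a member of this group that is most abundant in brain (ENSMUSG00000023912, chromosome 17, 43641891 to 43667214), was at 29.8 and 30.5 CPM in the frontal and 20.05 and 19.97 CPM in the parietal-interparietal libraries. The libraries of each group were nearly level, and Slc25a27 was 1.51-fold higher in frontal (30.1 ± 0.475 against 20.01 ± 0.0551 CPM, SD with n = 2 per group, log2 difference 0.59 ± 0.11 SE, adjusted p = 0.00739 by edgeR). Slc25a14, another brain-enriched member, was at 18.0, 15.2, 10.9 and 13.0 CPM, higher in both frontal libraries without a call (0.47 ± 0.16, adjusted p = 0.0786). Slc25a30, the third of the class, was at 11.9, 12.9, 10.8 and 13.4 CPM with overlapping groups.

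Neural markers differed between the groups beside these carriers, in both directions. The 8 forebrain markers were all called higher in frontal, 6 of 7 tested markers of the midbrain and anterior hindbrain were called lower, and of 10 markers of neurons in general 2 were called higher and 4 lower. The neuron markers summed to 859 and 880 CPM in the frontal and 969 and 976 CPM in the parietal-interparietal libraries. The part of these neural markers in the difference of Slc25a27 was not tested.

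None of the 7 tested carriers with no settled substrate or another role was called in the main edgeR fit. That fit took the filtered counts of all 4 libraries, TMM scaling and group as the only term. In it 1 of the 7, Slc25a35, had an unadjusted p under 0.05, as had 27.1% of all genes tested. DESeq2 called 0 of the 6 to which it gave an adjusted p. With edgeR, Slc25a35 was called with no filter (adjusted p = 0.0176) and with the replicate number as a block (0.0272). It was not called with halved counts (0.0755), upper-quartile scaling (0.0889) or scaling by the total count (0.105). These settings all keep 2 libraries per group. With 1 library left out the log2 difference of Slc25a35 ran from 0.69 to 1.71, and with the parietal-interparietal pair summed it was 1.08. Slc25a35 had the largest log2 fold change of the tested family, 1.10 ± 0.37 (adjusted p = 0.0848), and was at 3.58 and 3.66 CPM in the frontal and 1.10 and 2.25 CPM in the parietal-interparietal libraries. These parietal-interparietal libraries differed 2-fold from each other. Slc25a35 shares 1151 of 3677 exon bases with Rangrf on the other strand, which had 0 counts in the 4 libraries. How reads of the shared stretch were assigned is not given in the sources used here. Slc25a46, which acts in the fusion and shape of mitochondria from the outer membrane, had the highest level per length of the class, at 29.7, 26.9, 31.1 and 31.8 CPM (−0.15 ± 0.11, adjusted p = 0.418). Slc25a43, Slc25a45, Slc25a47, Slc25a48 and Slc25a53 had log2 fold changes between −0.54 and 0.26 and adjusted p-values of 0.366 or more. On the X chromosome Slc25a43 lies 18448 bases from Slc25a5 and was at 0.417, 0.682, 1.02 and 0.590 CPM, with overlapping groups, where Slc25a5 was called higher.

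**Figure D4:**
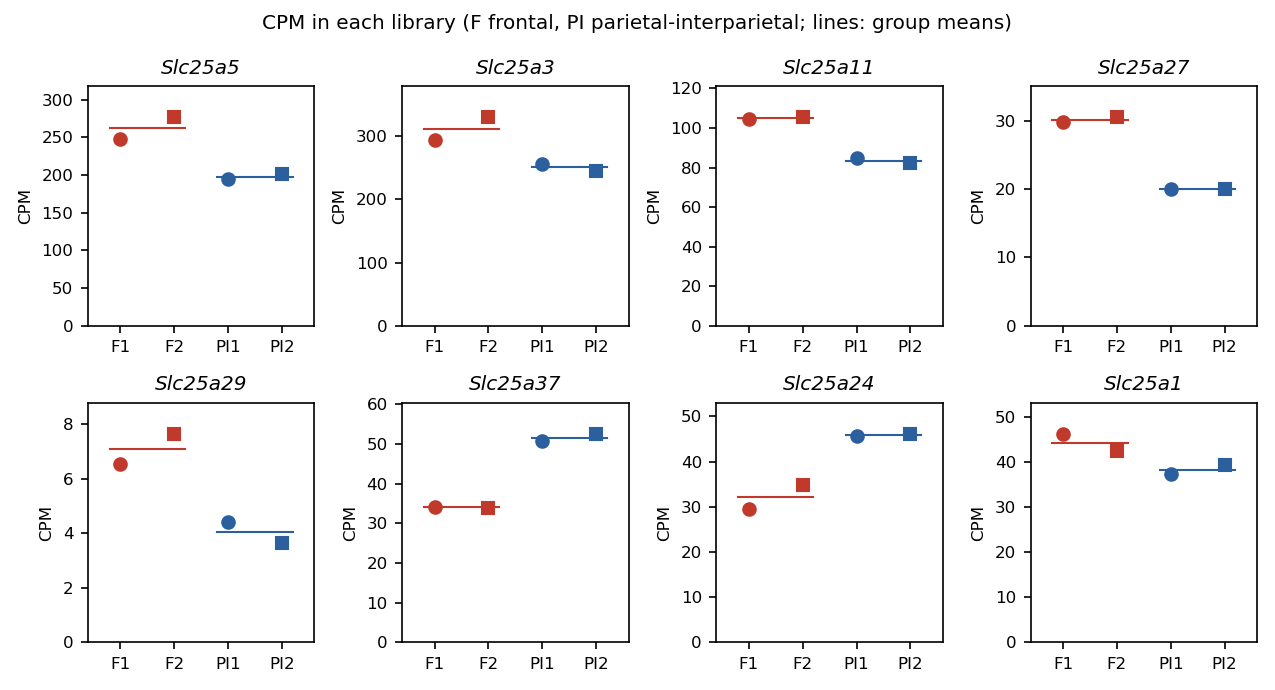
CPM in each library for the 7 called members and Slc25a1, with group means as lines and axes from 0 (F frontal, PI parietal-interparietal, numbers are replicates). Slc25a37 was at 34.1 and 33.9 CPM in frontal and 50.6 and 52.5 CPM in parietal-interparietal libraries. No panel shows groups that overlap, which the choice of called members makes likely for 7 of them.

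Of 5 relatives of the family that carry other symbols 3 passed the filter. With edgeR 0 of these were called, and 0 had an unadjusted p under 0.05. Mtch1 and Mtch2, carrier-like proteins of the outer membrane, had log2 differences of 0.06 ± 0.11 and −0.07 ± 0.08, and the uncoupling protein Ucp2 one of −0.14 ± 0.11. Ucp1, the uncoupling protein of brown fat, and Ucp3, that of muscle, had means under 1 CPM in both groups and were not tested.

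Carriers are brought to the inner membrane by import receptors, small TIM chaperones and the TIM22 complex. Of 13 genes of this machinery 2 were called higher and 1 lower, where 6.25% and 6.44% of all genes were, with a median log2 fold change of 0.07. Timm8b and Timm13, chaperones of the space between the membranes, were 1.74-fold and 1.72-fold higher in frontal. Timm8b was at 59.1, 52.2, 31.4 and 32.6 CPM (edgeR adjusted p = 0.000987) and Timm13 at 47.9, 36.3, 24.3 and 24.6 CPM (adjusted p = 0.00491). Timm10b, a chaperone that docks on the TIM22 complex, was 1.42-fold lower, at 35.9, 38.8, 50.5 and 55.9 CPM (adjusted p = 0.00961).

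Of 18 genes of other transport across the mitochondrial membranes 3 were called lower in frontal and 0 higher, where 6.44% and 6.25% of all genes were, with a median log2 fold change of −0.06. These were Mcu, the pore of the calcium uniporter (1.34-fold), its regulator Micu2 (1.32-fold) and the serine carrier Sfxn1 (1.24-fold), with adjusted p-values of 0.0147, 0.0168 and 0.0347. The mitochondrial pyruvate carrier genes Mpc1 and Mpc2 were not called. Of 23 genes taken as a measure of mitochondrial content, 4 were called higher and 1 lower, where 6.25% and 6.44% of all genes were, with a median of 0.10. The higher genes were Cox5a and Cox4i1 of cytochrome oxidase, the prohibitin gene Phb and the mitochondrial DNA factor Tfam, and the lower gene was citrate synthase, Cs. These 23 genes summed to 5813 and 5839 CPM in the frontal and 5572 and 5592 CPM in the parietal-interparietal libraries. The part of mitochondrial content in the differences of the carriers was not tested.

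The calls depended on which libraries entered the fit. When the parietal-interparietal libraries were summed to 1 sample, 0 members were called with edgeR, where 3.38% of all genes were, and 8 members had an unadjusted p under 0.05. Without parietal-interparietal library 1 Slc25a37 was the 1 called member (3.89% of all genes called), and without library 2 the 1 called member was Slc25a35 (3.84%). Without frontal library 1 there were 12 called members, 8 higher and 4 lower (24.2% of all genes), and without frontal library 2 there were 20, 12 higher and 8 lower (32.6%). Such a fit takes its spread from the pair left whole. The 7 called members kept the direction of their change in each of the 11 alternatives. Their groups did not overlap, so leaving out or summing libraries could hardly turn a sign. Their log2 fold changes without 1 library ranged over 0.22 to 0.40 for Slc25a3, 0.31 to 0.35 for Slc25a11, 0.31 to 0.48 for Slc25a5, −0.64 to −0.39 for Slc25a24, 0.57 to 0.61 for Slc25a27, 0.68 to 0.96 for Slc25a29 and −0.63 to −0.58 for Slc25a37. With no scaling beyond the total count, Slc25a3, Slc25a11 and Slc25a29 lost their calls and Slc25a42 and Slc25a51 were called lower, which left 2 members higher and 4 lower. That scaling moved the median of all genes from 0.01 to −0.05.

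**Figure D5:**
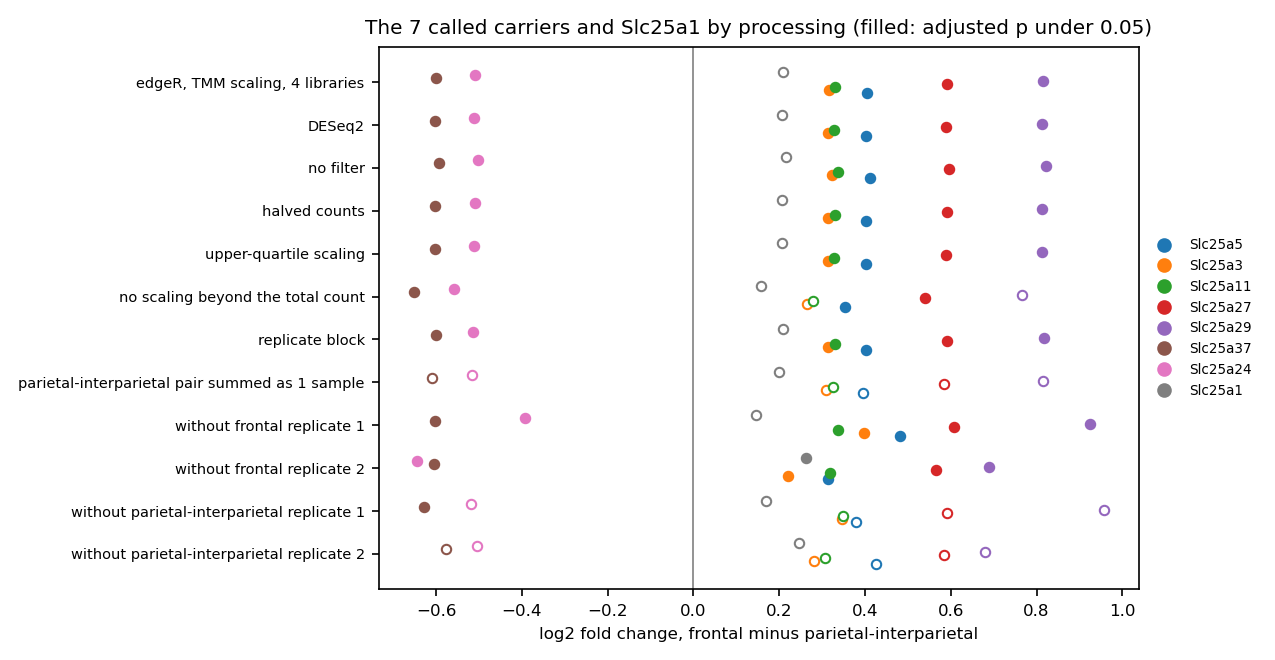
Log2 fold change (horizontal axis) of the 7 called members and Slc25a1 under the edgeR fit with TMM scaling and 11 alternatives (rows), with filled points for an adjusted p under 0.05. The groups of these genes did not overlap, so leaving out or summing libraries could hardly turn a sign. Each of the 8 genes stays on its side of 0, and where the parietal-interparietal libraries were summed to 1 sample no point is filled.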

How the data were processed

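The deposited values are whole-number counts of reads per Ensembl gene, not normalized. The counter featureCounts 2.0.1, the aligner HISAT2 2.1.0, the trimmer Trim Galore 0.6.7 and the mouse build GRCm38 are named for the upstream steps, per the submitters' processing notes. No settings were given in the sources used here. The deposited counts were matched to GENCODE M21, where 55227 of 55487 IDs had an entry. Genes were filtered with filterByExpr (minimum count 10), given TMM factors (trimmed mean of M-values) and compared in a two-sided quasi-likelihood test in edgeR 4.0.16 in R 4.3.3 on all 4 libraries, with group as the only term, 2 residual degrees of freedom and Benjamini-Hochberg adjustment over all genes tested. The standard error of a log2 difference is its size over the root of the F statistic. Levels per length divide CPM by the merged exon length. A floor of 3 counts corresponds to 0.0852 to 0.123 CPM per library. Near-identical copies were sought with BLAST 2.17.0, and figures drawn with matplotlib 3.10.9.

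The members, substrate classes, gene lists and alternatives were chosen with earlier results of these data known. By the rule for named genes, each library's value is given for Slc25a1, called members, the highest member per length of each class and sets of related carriers, with at most 4 called genes of smallest unadjusted p from each further list. Other members with library values, and Alas2, Klf1, Gata1, Cox5a, Mpc1 and Mpc2, were chosen after their values were seen. The procedure was tested on simulated data drawn from the means, depths and fitted dispersions of these libraries (20240 genes). It recovered 28.8% of 66 genes changed by 0.5 log2 units, 48.4% of 64 at 1 unit and 85.9% of 64 at 2 units. It also called 14 unchanged genes, a number to be read against the genes called in the simulation rather than against all 20240. Among the genes called it is a larger share than an adjusted p threshold of 0.05 aims at, with few changed genes to recover. Alternatives were DESeq2 1.42.0, upper-quartile scaling or scaling by the total count, no filter, halved counts (even values made up 68.3% to 74.4% of counts from 1 to 20; if both mates of a pair were counted, which is not stated, printed counts exceed the number of fragments), the replicate number as a block, the parietal-interparietal pair summed, and each library left out in turn. The values of 1 member are not reported here, and it enters the counts and medians only.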

Additional observations from a re-analysis of the deposited data

How the results depend on the processing

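Summing the parietal-interparietal pair to 1 sample left 791 called genes over all genes tested, and 0 members were called higher and 0 lower. With 1 library left out, genes called ranged from 865 to 7279, members called higher from 0 to 12 and members called lower from 0 to 8. Scaled by the total count alone, 2 members were called higher and 4 lower, and with no filter, with halved counts and with the replicate number as a block 4 were called lower in each, while 7, 5 and 7 were called higher. Of the tested members, 38 of 42 kept their call and direction with the block, and the other 4 gained a call, while the genes called overall went from 2657 to 3306. Deviations of same-numbered libraries from their group means correlated at 0.0179 across genes, and the labels give no pairing beyond the number. The cause of these differences was not tested.

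Scaling by the total count alone turned the sign of members near 0, Slc25a30 to −0.0186, Slc25a38 to −0.0282 and Slc25a44 to −0.0304 log2 units. With 1 library left out, 12 members that were not called changed sign in some fit. Their log2 fold changes ranged from −0.0968 to 0.0148 for Slc25a13, −0.36 to 0.17 for Slc25a20, −0.77 to 0.30 for Slc25a21, −0.12 to 0.20 for Slc25a30, −0.22 to 0.0499 for Slc25a33, −0.23 to 0.10 for Slc25a36, −0.0560 to 0.10 for Slc25a38, −0.0908 to 0.43 for Slc25a39, −0.12 to 0.0894 for Slc25a40, −0.11 to 0.14 for Slc25a44, −0.41 to 0.0133 for Slc25a45 and −0.20 to 0.30 for Slc25a47. DESeq2 kept the 7 calls and added Slc25a51, with no adjusted p for 2 members, and upper-quartile scaling kept the call and direction of all 42 members. Depth limited Slc25a21, Slc25a43 and the 5 untested members, which had few counts.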
